A study of Mus musculus with 3 samples.

Results

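The Has1+ Il6+ activated fibroblasts described here were taken from 2 single-cell RNA libraries of mouse hind paws in the K/BxN model, where autoantibody-rich serum from arthritic mice starts a joint inflammation. Stromal day 5 held sorted CD45-negative cells 5 days after serum transfer, and stromal day 0 held the same sort at steady state; the remaining library of the series, myeloid day 9, held CD45+ CD11b+ Ly6G- cells and was not searched for members. Members were chosen by their own RNA: among cells with at least 500 genes, at least 1000 unique molecular identifiers (UMIs, each a captured RNA molecule) and at most 10% mitochondrial UMIs, a member had at least 1 UMI of Pdgfra, at least 1 UMI of 3 or more of Has1, Il6, Cxcl10, Birc3 and Rrad (the 5 rule genes), no UMI of Itih2, Ptprc or Pecam1, and fewer than 5 UMIs of Saa3. There were 641 members at day 5 and 321 at day 0, or 962 of the 24485 cells of the series that passed the filter. The serum was given intraperitoneally. The labels describe the serum transfer in the same words for every library, name day 0 as steady state, and do not state strain, sex, age or the number of mice in a library. Each group was 1 library, so no test was run, day and library cannot be told apart, and every interval below is a 95% interval that covers counting error only.

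The synovium is the soft lining of a joint, and its fibroblasts, marked by the PDGF receptor Pdgfra, make hyaluronan and lubricin for the joint fluid. Cytokines such as TNF, IL-1 and IL-17 act on these cells through the transcription factor NF-kB, whose targets include Il6, neutrophil and monocyte chemokines, and its own inhibitors Nfkbia and Tnfaip3. Of the genes that define the state, Has1 is a hyaluronan synthase, Il6 a cytokine of joint inflammation, Cxcl10 a chemokine for CXCR3-bearing lymphocytes that interferon induces, Birc3 an inhibitor of apoptosis that takes part in NF-kB signalling, and Rrad a small GTPase of the RGK family. Tnfaip6, the only one of the 5 markers of the state that the rule did not use, encodes TSG-6, a secreted protein that binds hyaluronan and is induced by TNF and IL-1.

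The libraries held 11900 barcodes with 122224428 UMIs at day 5 and 7740 barcodes with 77842586 UMIs at day 0, of which 11172 and 7368 cells passed, and 9397 and 6165 of these had Pdgfra. The remaining 8756 Pdgfra-positive cells at day 5 and 5844 at day 0, called the other Pdgfra-positive cells, are the comparison group. Members were deeper than these: the median was 13752 UMIs in members and 9632 UMIs in other cells at day 5, and 11237 UMIs in members and 10175 UMIs in other cells at day 0. Mitochondrial UMIs made up a median of 3.19% in members and 3.34% in other cells at day 5, and 3.22% in members and 3.40% in other cells at day 0. The stromal libraries shared 32 barcodes, of which 25 passed in both and 1 was a member in both. Leukocyte RNA was low: the 11 macrophage and monocyte markers summed to 4.78 CPM (UMIs per 1000000 UMIs of the group) in members and 5.17 CPM in other cells at day 5, and to 6.29 CPM in members and 5.65 CPM in other cells at day 0. Adgre1 was at 0 in members on both days, and Cd52, Fcer1g, C1qa, C1qb, Csf1r and Cx3cr1 were at 0 in members at day 0. The limits on Ptprc and Pecam1 hold for members alone, and the other cells in the macrophage and monocyte sums were not held to them. Those sums give levels and cannot show how members differ from other cells. Neutrophil and blood endothelial markers are compared with other Pdgfra-positive cells that meet the same limits. Neutrophil markers summed to 1.24 CPM in members and 2.46 CPM in such other cells at day 5, and to 0 in members and 0.202 CPM in other cells at day 0. Blood endothelial markers summed to 2.30 CPM in members and 1.44 CPM in other cells at day 5, and to 2.52 CPM in members and 1.86 CPM in other cells at day 0.

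Members were present on both days, with a higher share of Pdgfra-positive cells at day 5 as counted. The share was 6.82% at day 5 (641 of 9397, Clopper-Pearson interval 6.32 to 7.35) and 5.21% at day 0 (321 of 6165, 4.67 to 5.79). Detection depends on depth, and after each cell was thinned to 5000 UMIs, with shallower cells left out, 229 of 7374 Pdgfra-positive cells, or 3.11% (2.72 to 3.53), qualified at day 5 and 137 of 4899, or 2.80% (2.35 to 3.30), at day 0. The intervals of the 2 days overlap after thinning and not before it. Without the limits on Itih2, Ptprc, Pecam1 and Saa3, 1075 cells, or 11.4% (10.8 to 12.1), had 3 or more rule genes at day 5 and 484 cells, or 7.85% (7.19 to 8.55), at day 0. Of these, 162 cells at day 5 and 2 cells at day 0 were set aside for Saa3, and 301 and 154 carried Itih2. Among passing cells without Pdgfra, 62 of 1775, or 3.49%, had 3 or more rule genes at day 5 and 34 of 1203, or 2.83%, at day 0. In cells with osteoblast markers and no Pdgfra it was 1 of 123 at day 5 and 1 of 157 at day 0, and in cells with endothelial markers and no Pdgfra none of 46 (upper limit 7.71%) at day 5 and none of 89 (upper limit 4.06%) at day 0.

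**Figure D1:**
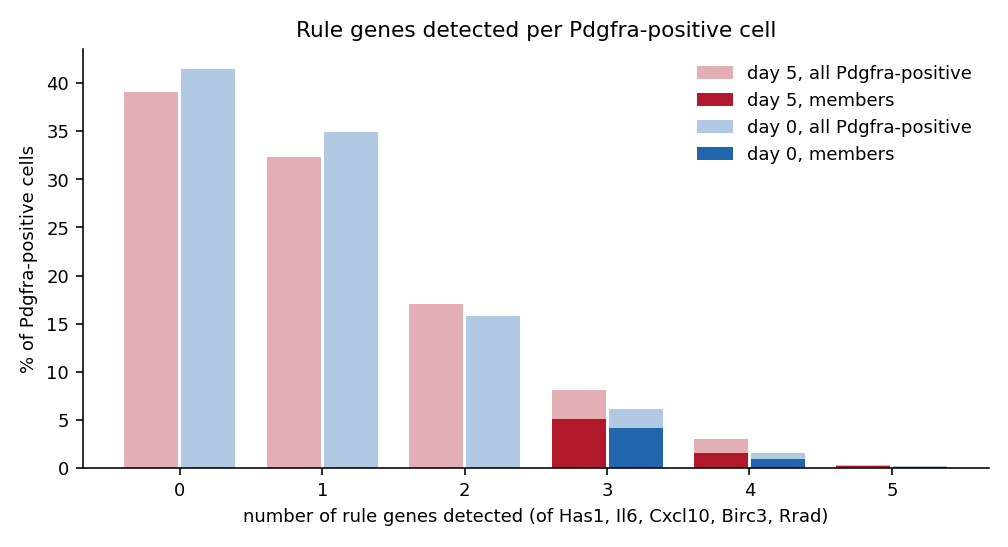
Bars give the percent of Pdgfra-positive cells with each number of the 5 rule genes detected, at day 5 (red) and day 0 (blue), with the members in full colour. Cells with no rule gene were the largest class, at 39.1% and 41.5%, and the share falls with each further gene on both days.

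The share of Pdgfra-positive cells fell with each further rule gene, as the plot of rule genes per cell shows. At day 5, 32.4% of Pdgfra-positive cells had 1 rule gene, 17.1% had 2, 8.08% had 3, 2.99% had 4 and 0.373% had all 5. At day 0 the shares were 34.9%, 15.8%, 6.10%, 1.57% and 0.178%. No gap set the cells with 3 or more rule genes apart from those with fewer. Rule genes were sparse: in day 5 members with the gene, the median was 4 UMIs for Has1 and 1 UMI for Rrad. A count of such detections cannot show whether members form a separate population.

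The label holds only in part for single cells. Has1 was detected in 87.8% of members at day 5 and 91.3% at day 0, Birc3 in 82.7% and 77.9%, Il6 in 68.2% and 71.3%, Rrad in 53.8% and 48.6%, and Cxcl10 in 36.0% and 31.8%. The most common combination was Has1 with Il6 and Birc3 and no other rule gene, in 159 members at day 5, or 24.8%, and 100 members at day 0, or 31.2%. Members with exactly 3 rule genes numbered 476 at day 5 and 259 at day 0, and all 5 were found in 18 cells at day 5 and 5 at day 0. A Saa3 UMI was present in 12% of members at day 5 and 2.18% at day 0, so "without Saa3" means a low count rather than none. As fibroblasts, members carried Dcn, a collagen-binding proteoglycan, at 21844 CPM and other cells at 29639 CPM at day 5, and at 24911 CPM and 29751 CPM at day 0. Col1a1 was at 3197 CPM in members and 2866 CPM in other cells at day 5, and at 2679 CPM in members and 3789 CPM in other cells at day 0.

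The rule genes are given as a description, since they chose the cells. Has1 was at 347.4 CPM in members and 108.4 CPM in other cells at day 5, and at 553.3 CPM in members and 144.2 CPM in other cells at day 0. Il6 was at 223.1 CPM in members and 38.95 CPM in other cells at day 5, and at 236.6 CPM in members and 21.7 CPM in other cells at day 0. Members held 38.1% of the Il6 UMIs of Pdgfra-positive cells at day 5 and 40.6% at day 0, with 9.70% and 5.90% of all UMIs. Cxcl10 was at 132.3 CPM in members and 31.0 CPM in other cells at day 5, and at 127.9 CPM in members and 20.2 CPM in other cells at day 0. Birc3 was at 129.4 CPM in members and 43.7 CPM in other cells at day 5, and at 170.9 CPM in members and 35.4 CPM in other cells at day 0. Rrad was at 196.0 CPM in members and 46.0 CPM in other cells at day 5, and at 218.8 CPM in members and 34.6 CPM in other cells at day 0. Within members, the ratio of day 5 to day 0 was 0.628 for Has1, 0.757 for Birc3, 0.943 for Il6 and 1.04 for Cxcl10.

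**Figure D2:**
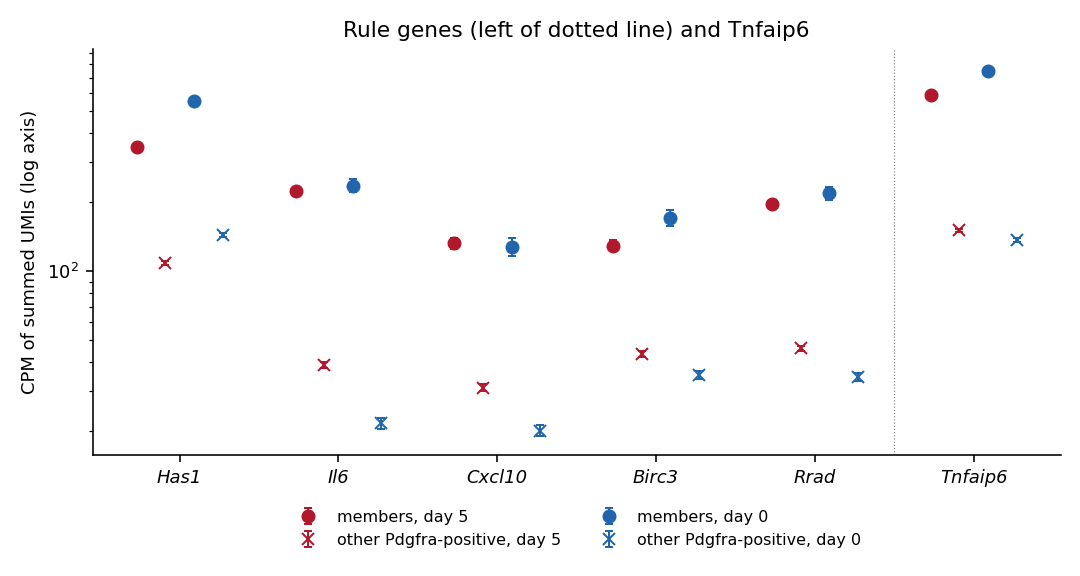
CPM of summed UMIs on a log axis for the 5 rule genes, left of the dotted line, and for Tnfaip6, with members as circles, other Pdgfra-positive cells as crosses, day 5 in red and day 0 in blue; bars are exact Poisson 95% intervals, often smaller than the symbol. Tnfaip6, at 589.4 and 749.6 CPM in members, stands above the 150.8 and 137.1 CPM of other cells on both days.

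Tnfaip6, which the rule did not use, was higher in members on both days. It was at 589.4 CPM in members and 150.8 CPM in other cells at day 5, a ratio of 3.91 (3.79 to 4.03). It was at 749.6 CPM in members and 137.1 CPM in other cells at day 0, a ratio of 5.47 (5.25 to 5.70). A UMI was found in 70.2% of members and 35% of other cells at day 5, and in 73.8% of members and 37.1% of other cells at day 0. Cells with endothelial markers and no Pdgfra, taken as cells that should lack it, gave 2.17% at day 5 and 3.37% at day 0 at median depths of 8846 and 7139 UMIs, and cells with osteoblast markers and no Pdgfra gave 7.32% and 18.5% at 7551 and 8304 UMIs. Among cells in the middle range of members' UMIs the ratio was 4.72 at day 5 and 6.53 at day 0, and with each cell thinned to 5000 UMIs it was 5.15 and 6.01. These ratios kept the members chosen at full depth, so they cannot show how depth shaped the choice of members.

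The start regions of 4 genes are shown because Il6, Cxcl10 and Cxcl1 are textbook NF-kB targets and Tnfaip6 is the marker outside the rule. Each is 250 bases before to 50 bases after the RefSeq start, 5′ to 3′ on the gene's strand (build GRCm38.p6), in lower case with nothing marked. The windows are chr5:30012864-30013163 on the plus strand for Il6, chr5:92348840-92349139 on the minus strand for Cxcl10, chr5:90890995-90891294 on the plus strand for Cxcl1 and chr2:52037863-52038162 on the plus strand for Tnfaip6.
Il6: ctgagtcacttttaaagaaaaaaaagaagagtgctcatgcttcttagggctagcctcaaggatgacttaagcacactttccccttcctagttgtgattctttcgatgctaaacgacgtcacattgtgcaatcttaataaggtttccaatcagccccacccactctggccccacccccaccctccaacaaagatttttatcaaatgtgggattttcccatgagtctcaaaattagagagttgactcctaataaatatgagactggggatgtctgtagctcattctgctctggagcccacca
Cxcl10: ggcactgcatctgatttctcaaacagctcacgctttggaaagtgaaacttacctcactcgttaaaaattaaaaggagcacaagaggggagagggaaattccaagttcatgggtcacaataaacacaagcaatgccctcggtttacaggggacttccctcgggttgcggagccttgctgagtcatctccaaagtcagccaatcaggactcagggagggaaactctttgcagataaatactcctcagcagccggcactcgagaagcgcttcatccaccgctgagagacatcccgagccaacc
Cxcl1: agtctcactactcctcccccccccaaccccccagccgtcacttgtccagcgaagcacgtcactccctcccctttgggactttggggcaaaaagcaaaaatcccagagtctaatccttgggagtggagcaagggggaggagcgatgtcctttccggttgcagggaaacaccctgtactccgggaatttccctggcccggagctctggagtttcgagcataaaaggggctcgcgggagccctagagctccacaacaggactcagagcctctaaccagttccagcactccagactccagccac
Tnfaip6: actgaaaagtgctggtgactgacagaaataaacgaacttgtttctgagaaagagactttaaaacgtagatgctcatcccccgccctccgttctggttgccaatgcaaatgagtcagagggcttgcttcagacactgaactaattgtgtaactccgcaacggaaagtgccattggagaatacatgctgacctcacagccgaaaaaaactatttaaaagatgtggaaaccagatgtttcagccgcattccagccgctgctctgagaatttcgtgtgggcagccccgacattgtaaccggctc
G and C made up 44% of the window in Il6, 50.3% in Cxcl10, 58.7% in Cxcl1 and 47% in Tnfaip6. No binding motif was searched for in these windows. Of 17 genes looked for, 13 were in the table.

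Against other Pdgfra-positive cells at day 5, members had more RNA of most chemokines compared, of the NF-kB inhibitors Nfkbia and Tnfaip3, and of Ptx3 and Ptgs2, and less of most osteoblast markers. Of 11626 genes compared outside the rule, 474 were at least 1.5-fold higher in members (4.08%) and 839 at least 1.5-fold lower (7.22%). At day 0, 334 of 9838 genes were at least 1.5-fold higher (3.39%) and 382 at least 1.5-fold lower (3.88%). The rule chose members within this same contrast, so these counts describe the cells and nothing more is read from them. The median log2 ratio over all genes was -0.07 at day 5 and -0.08 at day 0.

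Most of the chemokines compared were higher in members. Of the 15 compared at day 5, 10 were at least 1.5-fold higher and none lower (median log2 ratio 1.19), and of the 13 compared at day 0, 10 were higher and none lower (median 0.86). Cxcl1, a neutrophil attractant, was at 1444 CPM in members and 498.7 CPM in other cells at day 5, and at 801.8 CPM in members and 273.1 CPM in other cells at day 0, with ratios of 2.90 and 2.94. Ccl7, a monocyte attractant, was at 1156 CPM in members and 309.3 CPM in other cells at day 5 (3.74-fold) and at 266.3 CPM in members and 46.7 CPM in other cells at day 0 (5.70-fold). At day 0, 19.9% of members had Ccl7 and 5 members held 49.9% of its UMIs in members. Without its top cell the day 0 ratio was 4.89. Ccl2, which recruits Ccr2-bearing monocytes, was at 700.4 CPM in members and 185.2 CPM in other cells at day 5, and at 82.3 CPM in members and 28.5 CPM in other cells at day 0. Its RNA was uneven within the group: 37.3% of members had it at day 5 and 12.8% at day 0. In other Pdgfra-positive cells it was in 15.6% and 4.81%, and in the shallower cells with osteoblast markers and no Pdgfra in 5.69% and 2.55%. Cxcl2 was at 73.7 CPM in members and 16.6 CPM in other cells at day 5 and at 19.4 CPM in members and 8.06 CPM in other cells at day 0, where 1 cell gave 37.7% of its UMIs. Ccl19, a ligand of CCR7, was at 654.2 CPM in members and 299.2 CPM in other cells at day 5, and at 272.1 CPM in members and 112.8 CPM in other cells at day 0. Cxcl12 and Cxcl14 are made by fibroblasts at rest. Cxcl12 was at 2925 CPM in members and 2626 CPM in other cells at day 5, and at 3216 CPM in members and 2062 CPM in other cells at day 0.

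Part of the list of NF-kB subunits, inhibitors and targets was higher in members. Of the 25 genes compared, 11 were at least 1.5-fold higher and none lower at day 5 (median log2 ratio 0.55), and 13 were higher and 2 lower at day 0 (median 0.68). Nfkbia, the inhibitor IkB-alpha, was at 829.5 CPM in members and 458.7 CPM in other cells at day 5, and at 858.6 CPM in members and 364.7 CPM in other cells at day 0. Tnfaip3, which encodes the feedback enzyme A20, was at 65.0 CPM in members and 26.8 CPM in other cells at day 5, and at 59.2 CPM in members and 16.0 CPM in other cells at day 0. Bcl3, an atypical IkB protein, was 1.99-fold higher at day 5 (1.80 to 2.21) and 3.33-fold higher at day 0 (2.79 to 3.94). Rela, the main activating subunit, was at 54.9 CPM in members and 55.0 CPM in other cells at day 5, and at 63.4 CPM in members and 66.0 CPM in other cells at day 0. Icam1, the adhesion ligand of leukocyte integrins, was 1.67-fold higher at day 5 and 2.99-fold higher at day 0. The mitochondrial enzyme Sod2 was at 355.1 CPM in members and 156.3 CPM in other cells at day 5, and at 90.6 CPM in members and 55.5 CPM in other cells at day 0.

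**Figure D3:**
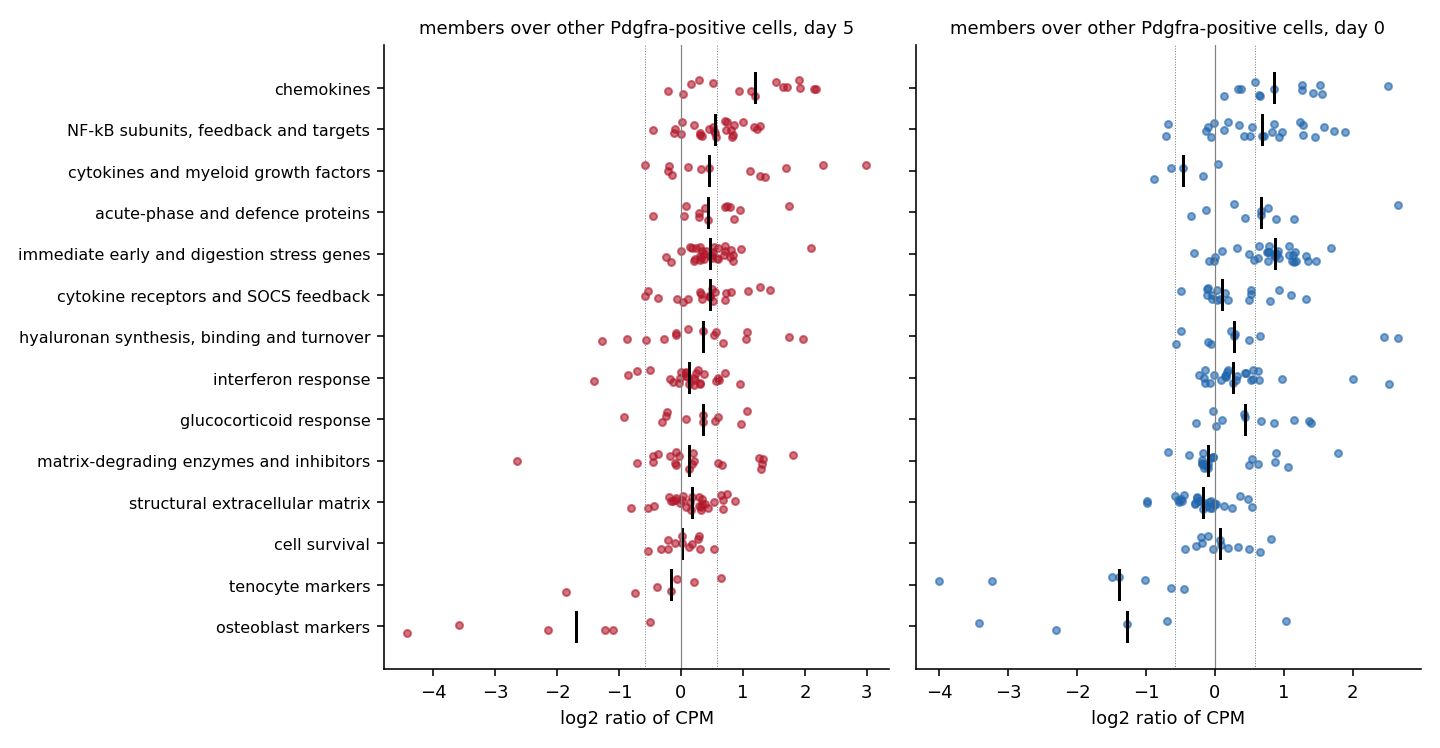
Each point is 1 compared gene of a list, placed by the log2 ratio of its CPM in members over other Pdgfra-positive cells at day 5 (left) and day 0 (right); black ticks are list medians, dotted lines 1.5-fold. Chemokines lie to the right on both days, with medians of 1.19 and 0.86, and osteoblast markers to the left, with medians of -1.69 and -1.28.

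Of the cytokine genes other than Il6, 6 of 13 compared at day 5 were at least 1.5-fold higher in members and none lower, and at day 0 none of 5 was higher and 2 were lower. Fewer genes reached the minimum of expected UMIs for a comparison at day 0. The counts of the 2 days therefore cover different genes and cannot show a change between days. The difference between days was not tested. Lif, a cytokine of the IL-6 family, was at 19.3 CPM in members and 5.99 CPM in other cells at day 5 (3.22-fold, 2.73 to 3.79), and at 2.01 CPM in members and 2.57 CPM in other cells at day 0. Il33, an alarmin of the IL-1 family, was at 88.9 CPM in members and 41.1 CPM in other cells at day 5, and at 35 CPM in members and 48.1 CPM in other cells at day 0. Tnfsf11, which encodes the osteoclast factor RANKL, was at 16.3 CPM in members and 6.36 CPM in other cells at day 5, and at 1.26 CPM in members and 2.27 CPM in other cells at day 0. Lif and Tnfsf11 were below that minimum at day 0, with 8 and 5 UMIs in members, and were not among the genes compared there. Csf3 and Il11 rest on few cells: 6 members gave all 75 Csf3 UMIs at day 5, and 1 cell gave 58.3% of the Il11 UMIs. Csf1, the growth factor of macrophages, was at 155.1 CPM in members and 171.9 CPM in other cells at day 5, and at 213.2 CPM in members and 206.9 CPM in other cells at day 0.

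Among receptors and SOCS feedback, 6 of 21 genes were at least 1.5-fold higher at day 5 and 1 lower, and 4 of 18 were higher at day 0 and none lower. Il17ra, a receptor chain for IL-17, was at 54.7 CPM in members and 25.9 CPM in other cells at day 5, and at 47.1 CPM in members and 21.8 CPM in other cells at day 0. Il1r1, the signalling receptor of IL-1, was 1.66-fold higher at day 5 (1.59 to 1.73) and 1.44-fold higher at day 0 (1.33 to 1.57). Socs3, an inhibitor of signalling downstream of gp130, was at 690.2 CPM in members and 499.7 CPM in other cells at day 5, and at 1087 CPM in members and 436.6 CPM in other cells at day 0.

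Hyaluronan genes outside the rule gave a mixed picture. Of 15 compared at day 5, 5 were at least 1.5-fold higher and 2 lower, and of 11 at day 0, 3 were higher and none lower. Has2, another hyaluronan synthase, was at 28.9 CPM in members and 20.1 CPM in other cells at day 5, and at 67.0 CPM in members and 42.5 CPM in other cells at day 0. Ugdh makes the UDP-glucuronic acid that hyaluronan is built from, and its ratio was 1.27 at day 5 and 1.41 at day 0. Cd44, the hyaluronan receptor, was at 173.3 CPM in members and 83.8 CPM in other cells at day 5, and at 87.1 CPM in members and 71.2 CPM in other cells at day 0. The pentraxin Ptx3, which binds TSG-6, was at 689.3 CPM in members and 205.2 CPM in other cells at day 5 (3.36-fold), and at 150.0 CPM in members and 23.9 CPM in other cells at day 0 (6.28-fold). At day 0, 20.2% of members had Ptx3 and 5 members held 43.1% of its UMIs in members. Without its top cell the day 0 ratio was 5.64.

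In the prostaglandin list, 3 of 12 genes were at least 1.5-fold higher in members and 1 lower at day 5, and 2 of 11 were higher and 3 lower at day 0. Ptgs2, the inducible cyclooxygenase, was at 150.7 CPM in members and 54.4 CPM in other cells at day 5, and at 139.5 CPM in members and 38.5 CPM in other cells at day 0. Ptges, a prostaglandin E synthase, was 1.62-fold higher at day 5 and 1.49-fold higher at day 0, and the receptor Ptger4 2.53-fold and 2.12-fold higher. Hpgd, which inactivates prostaglandins, was at 12.6 CPM in members and 28.6 CPM in other cells at day 5, and at 8.31 CPM in members and 18.7 CPM in other cells at day 0.

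Among matrix enzymes and their inhibitors, Plau and Adamts4 were higher in members on both days and Timp1 at day 5. Plau, the urokinase that activates plasminogen, was at 55.4 CPM in members and 15.8 CPM in other cells at day 5, and at 19.4 CPM in members and 9.31 CPM in other cells at day 0. Adamts4, an aggrecanase, was 2.45-fold higher at day 5 and 3.46-fold higher at day 0. Timp1, an inhibitor of metalloproteinases, was at 1395 CPM in members and 561.9 CPM in other cells at day 5, and at 153.6 CPM in members and 172.1 CPM in other cells at day 0. Of this list, 7 of 21 genes were at least 1.5-fold higher and 2 lower at day 5, and 5 of 21 were higher and 1 lower at day 0. The surface glycoprotein Pdpn was at 268.0 CPM in members and 130.3 CPM in other cells at day 5, and at 97.9 CPM in members and 85.9 CPM in other cells at day 0.

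Immediate early and stress genes, which tissue digestion at 37°C can also raise, moved with the state. Of these, 11 of 33 were at least 1.5-fold higher in members at day 5 and 24 of 32 at day 0, with none lower on either day. Atf3, a stress-induced transcription factor, was at 446.3 CPM in members and 250.6 CPM in other cells at day 5, and at 930.6 CPM in members and 288.8 CPM in other cells at day 0. Fos was at 5045 CPM in members and 4013 CPM in other cells at day 5, and at 5954 CPM in members and 3250 CPM in other cells at day 0. Their part in the results for members was not tested. Metallothioneins, which bind zinc, were also higher: Mt1 was at 9041 CPM in members and 4643 CPM in other cells at day 5, and at 4892 CPM in members and 1911 CPM in other cells at day 0.

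Most interferon genes were less than 1.5-fold apart from the other cells. Of 27 compared at day 5, 4 were at least 1.5-fold higher and 3 lower, and of 25 at day 0, 5 were higher and none lower. The median log2 ratio of the list was 0.13 at day 5 and 0.27 at day 0. Over all genes compared, 4.08% were higher and 7.22% lower at day 5, and 3.39% and 3.88% at day 0. Irf1, a transcription factor that interferon gamma and NF-kB induce, was at 140.4 CPM in members and 92.8 CPM in other cells at day 5, and at 238.4 CPM in members and 59.3 CPM in other cells at day 0. Gbp5, an interferon-induced GTPase, was at 6.60 CPM in members and 3.42 CPM in other cells at day 5, and at 10.6 CPM in members and 1.83 CPM in other cells at day 0. None of 13 survival genes was 1.5-fold apart at day 5, and 2 of 13 were higher at day 0, of which Mcl1, a BCL2 family protein, had a ratio of 1.76 (1.69 to 1.83).

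Most osteoblast markers compared were lower in members on both days, and most tenocyte markers at day 0. Bglap, which encodes osteocalcin, was at 21.8 CPM in members and 263.4 CPM in other cells at day 5 (12.1-fold lower), and at 32.7 CPM in members and 351.9 CPM in other cells at day 0 (10.8-fold lower). Of the osteoblast markers, 5 of 6 were at least 1.5-fold lower at day 5, and 4 of 5 were lower and 1 higher at day 0. Of the tenocyte markers, 2 of 7 were lower and 1 higher at day 5, and 6 of 7 were lower at day 0. The tenocyte markers summed to 806.4 CPM in members and 699.6 CPM in other cells at day 5, and to 380.4 CPM in members and 788.3 CPM in other cells at day 0. Angptl7, a secreted angiopoietin-like protein, was at 212.7 CPM in members and 563.9 CPM in other cells at day 0, and Chad, a cartilage matrix protein, at 57.7 CPM and 282.2 CPM. The 6 osteoblast markers summed to 175.4 CPM in members and 826.0 CPM in other cells at day 5, and to 393.7 CPM in members and 915.7 CPM in other cells at day 0, and their part in the other ratios was not tested. Of these markers, Ibsp was found in 53 members at day 5 and 11 at day 0, and 1 member held 56.8% and 54.3% of its UMIs in members. Prg4, which encodes lubricin of the lining, was at 4479 CPM in members and 3473 CPM in other cells at day 5, and at 4109 CPM in members and 3386 CPM in other cells at day 0. The day 0 value rests on few cells: 1 member held 20.8% of members' Prg4 UMIs and 5 members held 67.4%, while 55.5% of members had any. A few single cells dominate some sums at day 0: 1 member held 98.3% of the Acta1 UMIs and all Tnnc1 UMIs, both skeletal muscle genes, 1 member held 88.2% of the Mmp13 UMIs, and 2 members held all 61 UMIs of the division marker Mki67. Of the cell division genes, 6 of 6 were at least 1.5-fold higher in members at day 5 (median log2 ratio 1.24) and 2 of 2 at day 0 (median 3.54), and 18 members had Mki67 at day 5. The day 5 sums also rest on few cells: 5 members held 59.1% of members' Birc5 UMIs, 64.3% of Mki67 UMIs and 84.8% of Top2a UMIs. These counts are therefore not a trait of members at large.

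Tnfaip6 increased with the number of rule genes on both sides of the threshold and on both days. Among cells within the other limits of the rule, Tnfaip6 was at 48.9, 126.3, 210.1, 562.5, 611.3 and 913.7 CPM in cells with 0, 1, 2, 3, 4 and 5 rule genes at day 5. At day 0 it was at 80.7, 157.7, 253.1, 704.5, 861.6 and 1625 CPM. Cells just inside, with 3 rule genes, numbered 476 and 259, and those just outside, with 2, numbered 1131 and 682. Nfkbia was at 770.9 CPM just inside and 603.6 CPM just outside at day 5, and at 803.9 CPM and 503.0 CPM at day 0. It was lower with 5 rule genes than with 4 at day 5, at 843.2 CPM and 995.4 CPM, and Ccl2 was at 0 in the 5 cells with 5 rule genes and at 104.6 CPM with 4 at day 0. Depth moved with the number of rule genes at day 5, from a median of 8177 UMIs in cells with none to 21113 UMIs in cells with all 5, and less so at day 0, where the medians lay between 9047 and 14084 UMIs. At the Saa3 limit at day 5, 77 members with 1 to 4 Saa3 UMIs had Tnfaip6 at 648.6 CPM and Ccl2 at 860.5 CPM, and 22 cells with 5 to 20 Saa3 UMIs had them at 878.9 CPM and 2059 CPM.

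**Figure D4:**
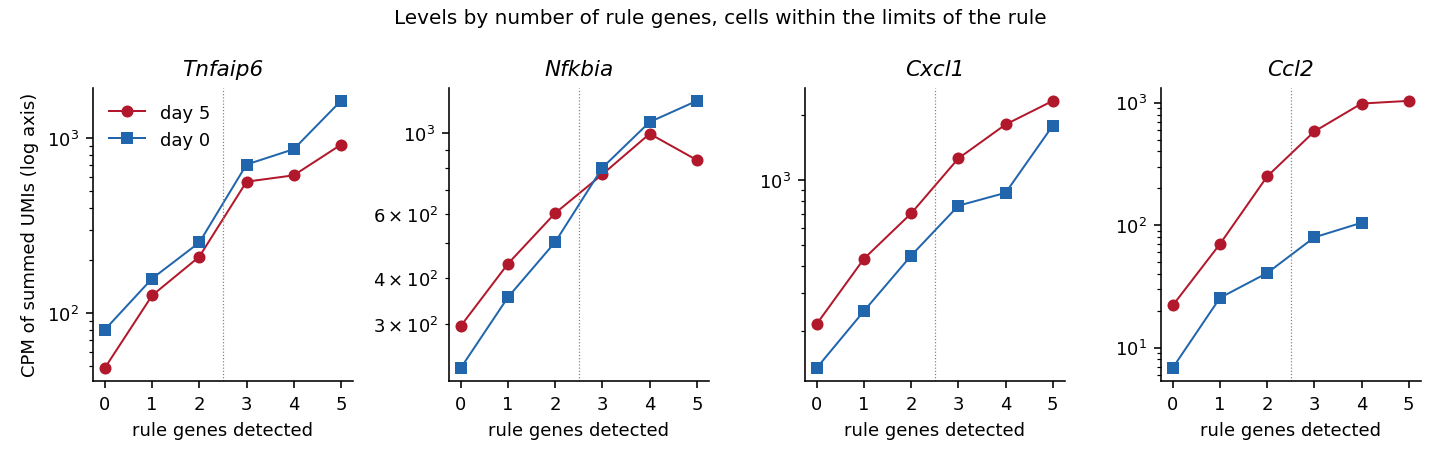
CPM on a log axis of Tnfaip6, Nfkbia, Cxcl1 and Ccl2, summed over cells with each number of rule genes that met the other limits, at day 5 (red circles) and day 0 (blue squares); the dotted line is the threshold for members, and no intervals are drawn. Tnfaip6 has no reversal from 48.9 to 913.7 CPM at day 5; the day 0 point of Ccl2 at 5 rule genes is 0 and not drawn, and rests on 5 cells.

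Members varied among themselves, and those with Il6 had more Tnfaip6 and Ptx3. Il6 and Cxcl10 are rule genes, so a member without one of them had to qualify by the remaining rule genes. The rule thus makes the divided groups differ in those genes, and its part in the differences below was not tested. Members with an Il6 UMI, 437 at day 5, had Tnfaip6 at 708.1 CPM and the 204 without at 309.4 CPM, and at day 0, 229 with it had 957.8 CPM and 92 without had 266.6 CPM. Ptx3 was at 841.6 CPM in members with Il6 and 330.3 CPM in those without at day 5, and at 198.1 CPM and 38.4 CPM at day 0. Median depths of the cells with and without Il6 were 14016 and 13512 UMIs at day 5, and 11168 and 11393 UMIs at day 0. Over all genes of the division by Il6, 203 of 9280 were at least 1.5-fold higher in members with Il6 and 433 lower at day 5. For day 0 the counts were 271 higher and 333 lower of 6224. Of 26 interferon genes compared at day 5, 8 were at least 1.5-fold higher in members with Cxcl10 than in those without and none lower, and at day 0 it was 1 of 12 and none lower. Over all genes of the same division of members, 282 of 9589 were higher and 217 lower at day 5, and 193 of 6376 were higher and 235 lower at day 0.

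Between the days, most chemokine and acute-phase genes compared in members were higher at day 5, while Nfkbia was near its day 0 level. Il6 and Cxcl10 helped to choose the members on both days, so near-equal levels of them in members partly reflect that choice. Outside the members both were higher on the later day. Other Pdgfra-positive cells went from 21.68 CPM (day 0) to 38.95 CPM (day 5) for Il6, and from 20.16 to 30.99 CPM for Cxcl10. Of 9832 genes compared, 980 were at least 1.5-fold higher at day 5 (9.97%) and 884 at least 1.5-fold lower (8.99%). In other Pdgfra-positive cells 1134 of 14313 genes were higher (7.92%) and 904 lower (6.32%). A difference between members and other cells in these day ratios was not tested.

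Of the chemokines, 9 of 14 were at least 1.5-fold higher at day 5 and 1 lower (median log2 ratio 1.15), and of the acute-phase genes 10 of 12 were higher and 1 lower (median 1.53). Of the matrix enzymes and inhibitors, 4 of 21 were higher and 6 lower (median -0.11). The median over all genes was 0.00. Cxcl5, a neutrophil attractant, was at 226.2 CPM in day 5 members and 6.80 CPM in day 0 members, a ratio of 33.3 (22.8 to 50.6), and other cells had a ratio of 16.0. Ccl2 was at 700.4 CPM in day 5 members and 82.3 CPM in day 0 members (8.51-fold), and other cells had a ratio of 6.51. Lcn2, an iron-siderophore binding defence protein, was at 543.2 CPM in day 5 members and 55.1 CPM in day 0 members (9.85-fold), with 6.66 in other cells. Timp1 was at 1395 CPM in day 5 members and 153.6 CPM in day 0 members (9.09-fold, 8.38 to 9.87), with 3.26 in other cells. The stromelysin Mmp3 was at 598.7 CPM in day 5 members and 62.9 CPM in day 0 members (9.51-fold), with 5.56 in other cells. Angptl4, an inhibitor of lipoprotein lipase, was at 224.5 CPM in day 5 members and 8.31 CPM in day 0 members (27.0-fold), with 11 in other cells. Slc39a14, a zinc and iron importer that IL-6 induces, was at 235.2 CPM in day 5 members and 28.5 CPM in day 0 members (8.27-fold), with 4.09 in other cells.

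Other genes were close on the 2 days or lower at day 5. Il6, a gene of the rule, was at 223.1 CPM in day 5 members and 236.6 CPM in day 0 members, levels that the choice of cells helps to set. Tnfaip6, outside the rule, was at 589.4 CPM and 749.6 CPM (ratio 0.786). The NF-kB list had 5 of 25 genes at least 1.5-fold higher and none lower (median 0.14), while in other cells 9 of 26 were higher and none lower (median 0.33). Icam1 was at 291.2 CPM in day 5 members and 416.9 CPM in day 0 members, and Irf1 at 140.4 CPM and 238.4 CPM, while other cells had ratios of 1.25 and 1.57. Of the growth factors, 10 of 25 were at least 1.5-fold lower at day 5 and 4 higher. Tmem100, a membrane protein of the BMP pathway, was at 66.3 CPM in day 5 members and 244.9 CPM in day 0 members (3.70-fold lower), and Ccn3, a matricellular protein, at 73.2 CPM and 258.5 CPM (3.53-fold lower). The 7 tenocyte markers were all at least 1.5-fold higher in members at day 5, and in other cells none was higher and 2 of 7 were lower. Thbs4, the most abundant of them, was at 399.8 CPM in day 5 members and 155.8 CPM in day 0 members, where 1 cell gave 35.7% of its UMIs. Others also rest on few day 0 members: 8 UMIs of Coch and 13 of Kera each came from 5 cells, and 5 cells gave 71.9% of Fmod UMIs. At day 5, 14 members had Coch. Tnmd was more widely spread, in 63 members at day 0 and 150 at day 5.

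**Figure D5:**
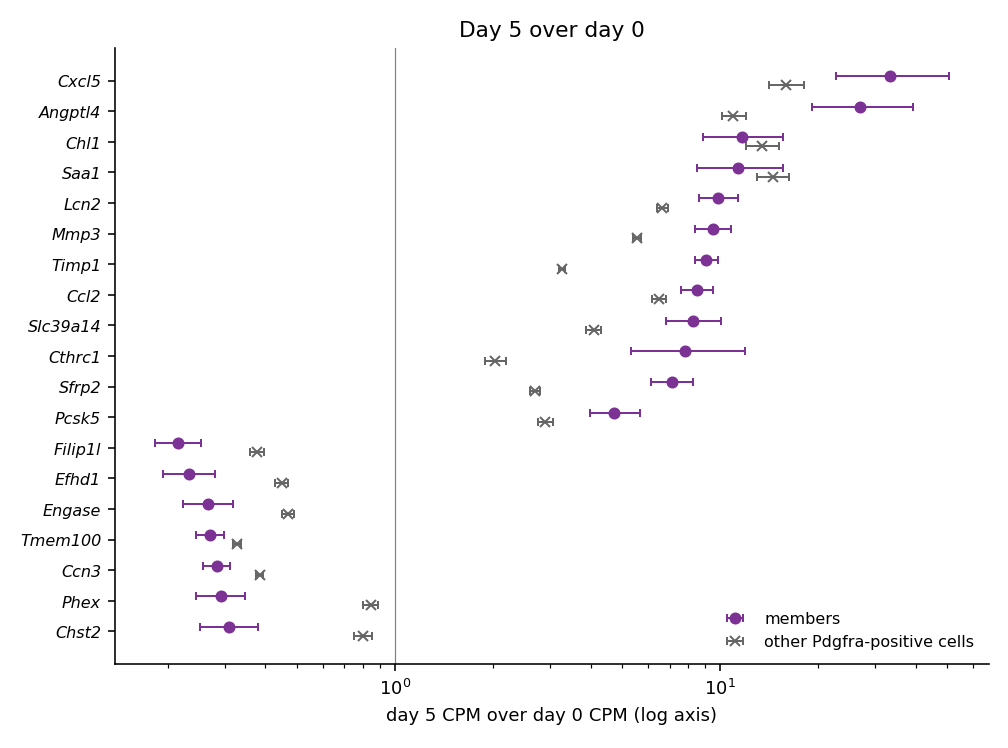
Ratio of day 5 to day 0 CPM on a log axis for 19 of the 24 genes the rule for named genes took in members, with exact 95% intervals, in members (circles) and other Pdgfra-positive cells (crosses); 5 genes with at least 50% of their UMIs in 1 member are not drawn, a choice made after their values were seen. Timp1 is at 9.09 in members and 3.26 in other cells, and Saa1 at 11.4 and 14.6.

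The 126 day 5 cells that met the rule but for 5 or more Saa3 UMIs were parted from members by that limit alone. Among Pdgfra-positive cells with that much Saa3, 162 of 437, or 37.1%, had 3 or more rule genes. Of 8933 genes compared, 763 were at least 1.5-fold higher in members (8.54%) and 232 lower (2.60%). Acute-phase genes stood lower in members, with 9 of 12 at least 1.5-fold lower and none higher (median log2 ratio -1.42). Saa3 is itself a gene of this kind and its limit parted the cells, so these counts and the levels that follow describe the choice of cells. Saa1 was at 131.9 CPM in members and 571.7 CPM in Saa3-high cells, Lcn2 at 543.2 CPM and 2232 CPM, and Cfb, complement factor B, at 525.8 CPM and 1436 CPM. The NF-kB list had 1 of 25 genes higher and 3 lower (median -0.03). Higher in members were Irf1, at 140.4 CPM in members and 46.1 CPM in Saa3-high cells, and Cdkn1a, the cell cycle inhibitor p21, at 245.9 CPM and 77.2 CPM. Inhba, an activin subunit, was at 68.2 CPM in members and 13.6 CPM in Saa3-high cells, with 38.3% of members' UMIs in 1 cell. Immediate early genes were at least 1.5-fold higher in 8 of 33 and lower in none.

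The cells set apart by Itih2 alone numbered 258 at day 5 and 153 at day 0. At day 5, 309 of 10357 genes were at least 1.5-fold higher in members (2.98%) and 396 lower (3.82%), and at day 0, 377 of 8222 were higher (4.59%) and 307 lower (3.73%). None of the 25 NF-kB genes at day 5 or the 22 at day 0 was 1.5-fold apart, a count that these low shares of all genes leave without a reading for the list. Tnfaip6 was at 589.4 CPM in members and 267.4 CPM in cells with Itih2 at day 5, a ratio of 2.20. Of the hyaluronan list, 5 of 13 genes were at least 1.5-fold higher in members and 1 lower at day 5, and 4 of 10 were higher and 1 lower at day 0. Fbln7, a matrix protein of the fibulin family, was at 134.7 CPM in members and 396.0 CPM in cells with Itih2 at day 5. Of the interferon list, 10 of 28 genes were at least 1.5-fold lower in members at day 5 and none higher, and at day 0 none of 21 was lower and 2 were higher.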

How the data were processed

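The deposited files hold whole UMI counts per gene and cell barcode, which the authors made with Cell Ranger (version 6.0.1, per the file headers); per the labels the kit was 10x 3' and the reference mm10. The submitters' processing notes also name Seurat 4.3.0, with no role stated. No doublet caller was run, and cells of very high UMIs were left out as an alternative. UMIs were summed over a group of cells in a library and divided by the group total, as CPM. A gene was compared where the mean of both CPM values would give at least 20 UMIs in the smaller group, with the genes of the rule left out. Ratios carry the exact conditional binomial interval, CPM the exact Poisson interval and shares the Clopper-Pearson interval, computed with scipy 1.17.1 in Python 3.11.15. The ratio interval was run on simulated Poisson counts with known folds, which checks the computation and not the spread between cells. UMIs are counted molecules, so intervals cover counting error only. A difference of 1.5-fold is a size and not a call, and no p-value was computed. The 12 genes with the highest and the 12 with the lowest ratio were named in each comparison, with at least 50 CPM in the higher group and an interval that excludes 1. Genes of mitochondria, ribosomal proteins, haemoglobins and antigen receptors, predicted genes and sex-linked genes were not named. A list gave up to 4 genes on the side of the list median and 1 opposite, and the text names some of these. Further genes, such as Rela, Csf1, Cxcl12, Prg4, Dcn and Fos, were chosen after their values were seen. The members and lists were chosen with earlier results of these data known. Alternatives were other cell filters, rule thresholds, comparison cells, depths, scalings (edgeR 4.0.16 TMM, DESeq2 1.42.0 size factors), weights and UMI minimums. Added after seeing the data were the comparisons with Saa3-high and Itih2 cells, leaving out members with RNA of another cell kind, and leaving out the member with most UMIs of a gene. Gene start regions are from RefSeq.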

Additional observations from a re-analysis of the deposited data

Results flagged for a closer look

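The myeloid day 9 library, which no comparison above used, held RNA of the genes that define the state. Its 5945 passing cells carried 15 UMIs of Has1 (in 0.185% of cells), 342 of Il6 (1.35%), 2936 of Cxcl10 (13.3%), 6446 of Birc3 (48.5%), 1521 of Rrad (14.6%) and 292 of Tnfaip6 (3.04%). These cells were sorted as CD45+ CD11b+ Ly6G- and 0.235% had a Pdgfra UMI.

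Of 9406 genes compared on both days, 16 were at least 1.5-fold higher in members than in other Pdgfra-positive cells on one day and at least 1.5-fold lower on the other, and 3 of them had at least 50 CPM in the higher group; the difference between the days was not tested. Cthrc1, a secreted matrix protein, had a ratio of 1.87 at day 5 and 0.487 at day 0, where members had 27 UMIs. Inhba had a ratio of 2.42 at day 5, where 1 member held 38.3% of its UMIs, and 0.540 at day 0, where 1 member held 31.1%. Mmp13, a collagenase, had a ratio of 0.160 at day 5 and 1.85 at day 0, where 1 member held 88.2% of its UMIs.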

How the results depend on the processing

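No paired analysis was possible because each group was 1 library. Of 126 recomputed shares and gene counts, 97 stayed within the interval or within 1.5 times and 29 did not. The member share of Pdgfra-positive cells was 1.76% at day 5 and 1.01% at day 0 with 4 of the 5 rule genes required, 18.9% and 16.3% with 2 required, 4.54% and 3.46% with Rrad left out of the rule, and 3.11% and 2.80% after thinning to 5000 UMIs. At day 5 it was 6.002% with Saa3 at 0, 8.16% with no limit on Saa3 and 5.42% without the cells of highest UMI count. Genes at least 1.5-fold lower in members than in other cells at day 5 numbered 472 with 2 rule genes required, 1340 with no limit on Saa3, 528 in the middle range of UMIs and 493 with a minimum of 50 expected UMIs. At day 0 that minimum gave 210 higher and 165 lower. Between days in members, 496 genes were higher and 560 lower with 4 rule genes required, 607 and 554 with the minimum of 50, and 652 and 583 after thinning. The thinned gene counts kept the members chosen at full depth, while the thinned shares applied the rule again. With no minimum and 0.5 UMI added the counts were 4469 higher and 2698 lower at day 5, 5516 and 1791 at day 0, and 2655 and 3492 between days. The minimum changes how many genes are compared, and for the other settings the cause was not tested.

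Of 1355 recomputed values of single genes, 832 stayed, 504 moved without a change of direction and 19 turned. The turned values were of 4 genes that single cells dominate. For members over other cells at day 0, Acta1 was at 0.276 with 4 rule genes required, 0.160 with Rrad left out, 0.341 without members with RNA of another cell kind, 0.299 in the middle range of UMIs, 0.282 without cells with S100a8, S100a9 or Lyz2, and 0.334 without its top cell, and Tnnc1 was at 0 in the same settings. Between days in members, Acta1 was at 1.77 with 4 rule genes required and 1.27 with Rrad left out. Mmp13 was at 38.7 with 4 rule genes required, 69.5 without the cells of highest UMI count and 7.98 without members with RNA of another cell kind. Spp1 was at 32.8 with 4 rule genes required and 3.11 in the middle range of UMIs. Limits are the 1 library per group, the unstated number of mice, and sums of 10458963 UMIs at day 5 and 3972540 at day 0, at which genes of a few CPM rest on few molecules.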
